A study of Mus musculus with 24 samples.

Results

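The insulin-like growth factor (IGF) axis was followed through 10 genes of the 28109 in the deposited count table. These were the ligands Igf1 and Igf2, the noncoding RNA H19, the receptors Igf1r and Igf2r, and the binding proteins Igfbp2, Igfbp3, Igfbp4, Igfbp5 and Igfbp6. They were taken by gene name, and each name matched 1 row. The list was drawn up with earlier results of these data known. RNA-seq was performed on 24 libraries from 12 groups, with 2 biological replicates per group. C2C12 cells, an established mouse myoblast line of the C3H strain, and primary myoblasts (PMs) from muscle of 3–4 week-old C57BL/6 mice were each transfected with a control siRNA (siControl, called siLuc in the labels) or with siRNA pools against Tead1 and Tead4 together (siTead1/4). Day 0 cells, described as non-differentiated, were harvested 24 hours after transfection, and differentiating cells after 3 and 6 days in 2% horse serum. Every group, controls included, was therefore transfected, and all cells of days 3 and 6 were in low serum. C2C12 is a single line, PMs were grown on matrigel in another basal medium, and how many mice gave each PM sample is not given in the sources used here.

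IGF1 and IGF2 are secreted peptides that act mainly through the tyrosine kinase receptor encoded by Igf1r, which feeds the PI3K and Akt pathway. Igf2r, the cation-independent mannose 6-phosphate receptor, takes up IGF2 and routes it to lysosomes. The binding proteins hold IGFs outside the cell and can limit or prolong their action. In muscle the axis is known for driving both proliferation and differentiation of myoblasts, and Igf2 is a well known autocrine differentiation signal. Igf2 and H19 are imprinted neighbours, expressed from the paternal and the maternal chromosome respectively, and Igf2r is imprinted in mouse as well.

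In the mm9 (NCBIM37) build of the files, H19 spans chr7:149761434-149764048 and Igf2 spans chr7:149836673-149852721, both on the minus strand with 72624 bases between them. The gene of miR-675 (chr7:149762969-149763052) lies inside H19 and that of miR-483 (chr7:149840829-149840901) inside Igf2. On the opposite strand, Igf2as (chr7:149845598-149856261) overlaps Igf2, Airn (chr17:12934177-13052988) overlaps Igf2r (chr17:12875272-12962530), and Gm16176 (chr10:87289122-87326126) overlaps Igf1 (chr10:87321010-87399792). The kit did not mark strand, so reads from such overlaps cannot be told apart. Igfbp2 (chr1:72871077-72899048) and Igfbp5 (chr1:72904506-72921458) are also neighbours, 5457 bases apart. The other members were Igf1r at chr7:75097713-75371484, Igfbp3 at chr11:7106089-7113926, Igfbp4 at chr11:98902558-98915706 and Igfbp6 at chr15:101974793-101979942.

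The mature miRNAs carried by the H19 and Igf2 transcripts are shown because their hosts had the highest levels per kilobase of all members in every PM library. They were taken from RefSeq (GRCm38.p6) with the seed (bases 2 to 8) in capitals, and all 4 seeds differed. These small RNAs were not measured in the poly(A) libraries.
miR-675-5p: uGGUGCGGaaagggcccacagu
miR-675-3p: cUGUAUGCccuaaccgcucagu
miR-483-5p: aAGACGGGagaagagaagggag
miR-483-3p: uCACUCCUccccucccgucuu

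RefSeq promoters (250 bases before to 50 after each start, GRCm38.p6) were available for 9 of the 10 members, 13 promoters in all, and each matched mm9 exactly at 1 place. Both strands were searched for CATTCCA and CATTCCT, the core of the MCAT element that TEAD proteins bind, and for the E-boxes CAGCTG and CACCTG that MyoD-family factors bind. CATTCCT was present in 2 of the 4 Igf2 promoters and in 5.36% of all 32851 promoters, while CATTCCA was in none of the 13 and in 4.29% of all. CAGCTG was found in the Igf1 promoter (16.3% of all) and CACCTG in single promoters of Igf2r, Igfbp2 and Igfbp3 (20.2% of all). The Igf2 and Igf1 matches are shown with the motif in capitals, on the gene's strand with mm9 coordinates. In the first window the capitals are CATTCCT read on the opposite strand, and the other 2 windows lie in annotated exons of their gene.
Igf2, minus strand, chr7:149843512-149843611: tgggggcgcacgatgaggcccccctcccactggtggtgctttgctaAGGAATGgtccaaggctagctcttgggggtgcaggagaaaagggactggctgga
Igf2, minus strand, chr7:149844871-149844900: ggtgacgcctcCATTCCTcccccctcaaca
Igf1, plus strand, chr10:87323687-87323716: gggaagagaggtCAGCTGcctagagcgatt

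Total counts on genes ran from 25453830 to 52784510 in the C2C12 libraries and from 32571583 to 51110723 in the PM libraries. Levels are given in CPM (the count of a gene relative to the library total, after TMM normalisation over all 24 libraries), in the order replicate 1 and replicate 2. At day 0 Tead1 was at 70.5 and 113 CPM in siControl and 28.9 and 4.50 in siTead1/4 C2C12 cells, and Tead4 at 18.7 and 21.2 and at 4.37 and 4.28. In PMs Tead1 went from 172 and 151 to 69.8 and 50.1 CPM and Tead4 from 64.2 and 59.5 to 13.2 and 11.1. Tead4 was lower in every siTead1/4 library than in the siControl libraries of the same cells and day, and so was Tead1 except in C2C12 cells at day 6 (siControl 76.0 and 136 CPM, siTead1/4 70.6 and 77.0 CPM). In edgeR's test Tead1 was not called in C2C12 cells on any day (adjusted p = 0.17, 0.5 and 0.95), nor was Tead4 there at day 6 (0.32) or Tead1 in PMs at day 6 (0.14). The 2 siTead1/4 libraries of C2C12 cells stood apart from each other for several members. Values that rest on one of them are given without it too, or with the levels of the single libraries. All 6 myogenic markers were counted in every group. The 6 differentiated muscle markers summed to 73.3 and 21.3 CPM in siControl C2C12 cells at day 0 but to 8335 and 7386 CPM in PMs labelled day 0, where Myog was already at 959.7 and 1039 CPM. In siControl PMs that sum was 37594 and 34716 CPM at day 3, with all 6 called higher than at day 0. Of the myogenic markers 1 rose and 3 fell by then, with Myf5 at -2.28 and Pax7 at -1.51 (log2 fold change). The PM libraries labelled day 0, described as non-differentiated, thus held differentiated muscle markers, but less than at day 3. Whether all or part of their cells had differentiated cannot be told. Every PM change from day 0 starts from those levels. Of other cell types, the 4 endothelial markers summed to 2.79 to 13.8 CPM over the PM libraries, the 4 Schwann cell markers to 2.08 to 14.2, the 5 macrophage markers to 0.954 to 2.76 and the 4 adipocyte markers to 1.53 to 9.83, against 0.183 to 1.40, 0.675 to 2.11, 3.01 to 9.29 and 3.92 to 47.1 in C2C12 cells. The 7 fibroblast markers summed to 552 to 3872 CPM in PMs and 839 to 3658 in C2C12 cells, with Tcf21 at 0 throughout. In such bulk samples fewer cells of a type and less RNA per cell cannot be told apart.

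**Figure D1:**
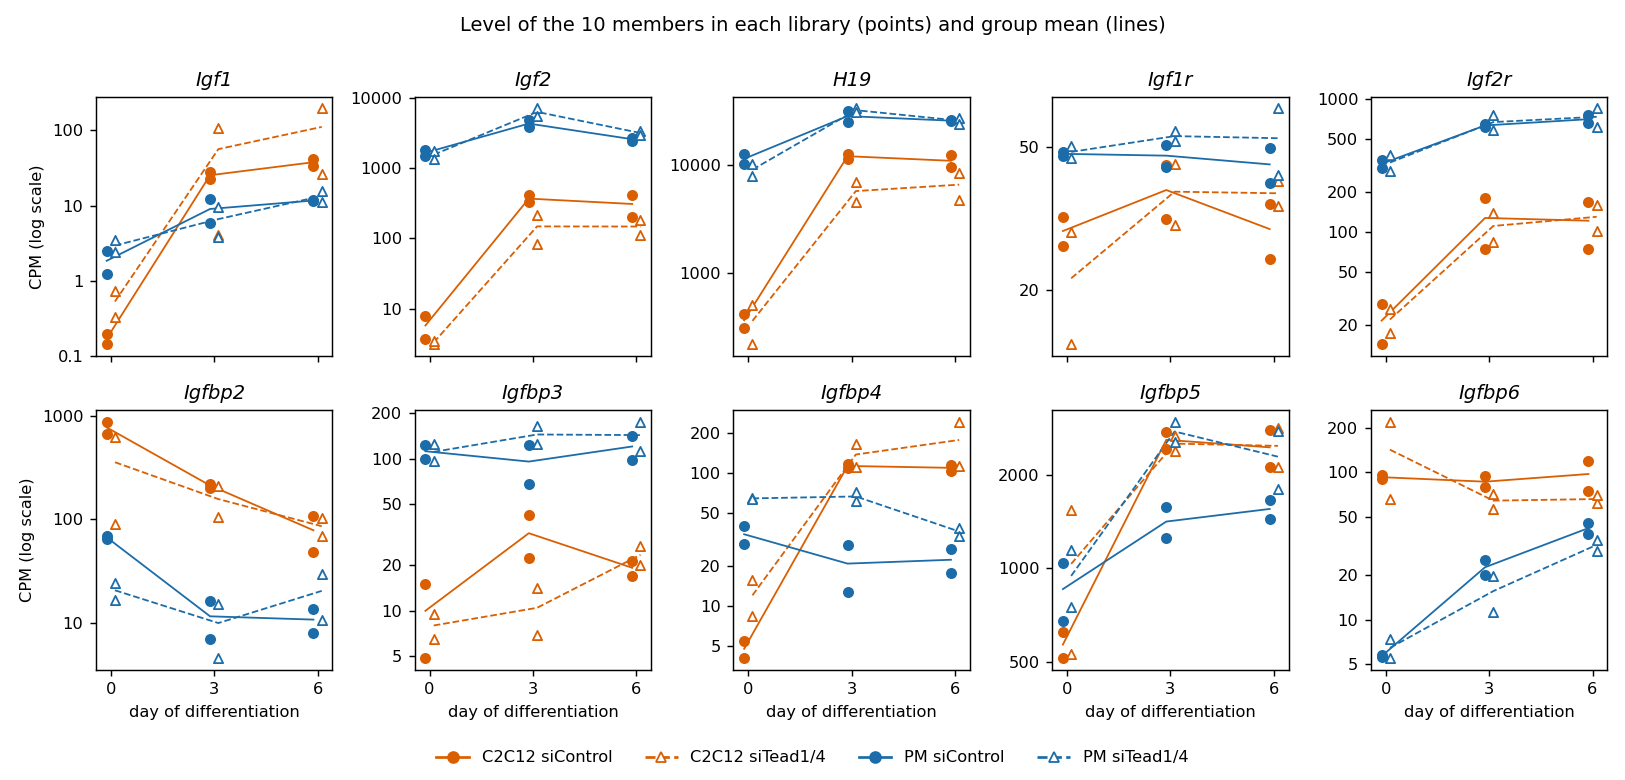
CPM of the 10 members (log axis) by day, with 1 point per library (circles siControl, triangles siTead1/4) and lines through the group means of C2C12 cells and PMs. Igf2, H19, Igf2r and Igfbp3 lay higher in every PM library than in any C2C12 library of the same day, and Igfbp2 and Igfbp6 lay lower.

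Differentiation was examined first in siControl cells. Genes are referred to as called where the adjusted p of edgeR's quasi-likelihood test (Benjamini-Hochberg over all genes tested) was under 0.05 and the absolute log2 fold change over 1. Most of the axis rose in C2C12 cells. There 7 of 10 members rose and 0 fell from day 0 to day 3, when 28.7% of all 15303 genes tested were called, and 6 rose and 1 fell by day 6, with 31.1% called. Both counts include Igf1, which had 7 and 8 counts at day 0 and passed the filter on low counts through the later days, so that its difference from day 0 was built in. In PMs 4 rose and 1 fell at day 3 (32.3% of 16144 genes called), and likewise 4 and 1 at day 6 (35.5%). The median log2 fold change of the members at day 3 was 2.34 in C2C12 cells and 0.78 in PMs, where that of all genes was -0.01 and 0.01. Between day 3 and day 6 no member was called by edgeR or DESeq2 in either cell type, with 0 and 2 members at an unadjusted p under 0.05 in C2C12 cells and PMs and 0% and 2.8% of all genes called. The values of at least 0.5 on the log2 scale were 0.58 for Igf1 (adjusted p = 1), -1.43 for Igfbp2 (adjusted p = 1) and -0.75 for Igfbp3 (adjusted p = 1) in C2C12 cells, and -0.75 for Igf2 (adjusted p = 0.043) and 0.87 for Igfbp6 (adjusted p = 0.064) in PMs.

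**Figure D2:**
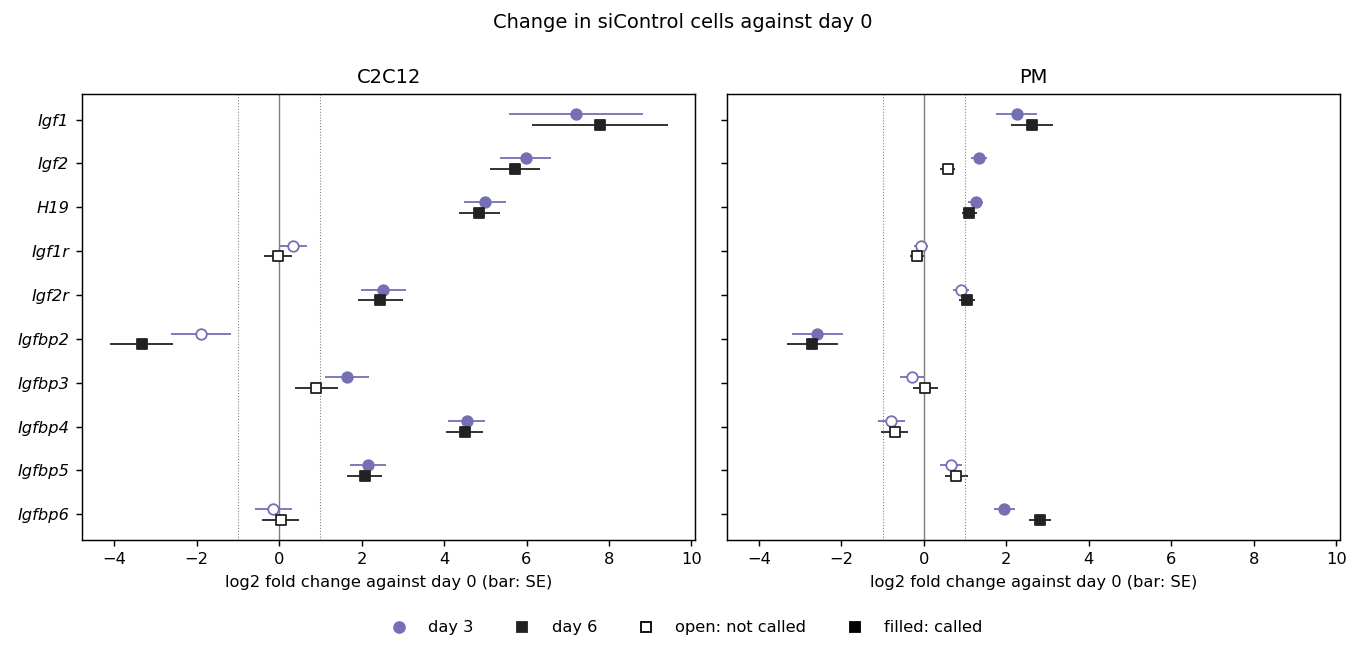
Log2 fold change of each member in siControl cells at days 3 and 6 against day 0, with bars of 1 SE. The C2C12 panel holds the larger rises, with Igf1 up to 7.77, a difference that was built in by the filter on low counts. Igfbp2 lay below 0 in both panels and Igf1r near 0.

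Igf2, the ligand with the promoter sequences above, had the widest range of the 10 members. In siControl C2C12 cells it went from 7.80 and 3.66 CPM at day 0 to 326 and 412 at day 3, then 204 and 415 on day 6. The days did not overlap with day 0, and Igf2 rose by 5.98 ± 0.61 (adjusted p = 5.8e-05, log2 fold change ± SE) at day 3 and by 5.72 ± 0.60 (adjusted p = 6.4e-05) at day 6. Without replicate 1 of day 0 these rises were 6.62 and 6.37. In siControl PMs Igf2 stood at 1827 and 1498 CPM at day 0, 4823 and 3852 at day 3, then 2485 and 2708 on day 6. It peaked at day 3, with a rise of 1.33 ± 0.19 (adjusted p = 0.00015). The day 6 level lay between the other days, with 0.58 ± 0.19 (adjusted p = 0.021) against day 0 and -0.75 ± 0.19 (adjusted p = 0.043) against day 3, both short of the fold threshold.

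H19, the noncoding neighbour of Igf2 and the host of the miR-675 sequences above, had a level of 420.0 and 314 CPM in day 0 siControl C2C12 cells, 11473 and 12672 at day 3, then 9547 and 12358 on day 6. It rose by 5.00 ± 0.51 (adjusted p = 5.6e-05) and by 4.86 ± 0.51 (adjusted p = 5.8e-05). In siControl PMs the levels were 12672 and 10176 CPM at day 0, 31921 and 24777 at day 3, then 25929 and 25510.1 on day 6, all above day 0. The rises were 1.26 ± 0.18 (adjusted p = 0.00015) at day 3 and 1.10 ± 0.18 (adjusted p = 0.00032) at day 6, and the latter was 0.95 (adjusted p = 0.0058) without replicate 2 of day 0, just under the fold threshold. Over both siRNAs, H19 took 2.22% to 3.04% of all gene counts in PMs at day 3, and 0.0258% to 0.0543% in C2C12 cells at day 0. Per kilobase of gene length in siControl cells, the level of Igf2 was 0.00830 and 0.00520 times that of H19 in C2C12 cells at day 0 and 0.0127 and 0.0145 times at day 3, and in PMs 0.0644 and 0.0658 times at day 0 and 0.0675 and 0.0695 times at day 3.

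Igf1, the second ligand, was barely present in siControl C2C12 cells at day 0, at 0.197 and 0.142 CPM. It reached 22.8 and 27.8 CPM at day 3 and 41.8 and 33.5 at day 6. The difference from day 0 was built in by the filter, so no test of it is given. The fitted log2 fold changes were 7.20 and 7.77. Without replicate 2 of day 0 the day 3 value was 6.95. In siControl PMs Igf1 was at 1.23 and 2.45 CPM at day 0, 5.89 and 12.1 at day 3, then 11.6 and 11.7 on day 6. It rose by 2.25 ± 0.50 (adjusted p = 0.0028) and 2.61 ± 0.51 (adjusted p = 0.0011), although the day 3 rise was 2.31 (adjusted p = 0.08) when all 24 libraries shared 1 fit and 1.65 (adjusted p = 0.026) without replicate 2 of day 3. Per kilobase, Igf2 exceeded Igf1 in each of the 24 libraries.

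The receptors behaved differently from each other. Igf1r, the signalling receptor, stayed within 14.2 to 44.9 CPM over all C2C12 libraries and within 39.7 to 64.0 over all PM libraries, and it was called in none of the 20 comparisons. Igf2r went from 14.3 and 28.8 CPM at day 0 to 74.6 and 179 at day 3, then 73.6 and 168 on day 6 in siControl C2C12 cells. Its replicates differed by over 2-fold on each day, and it rose by 2.52 ± 0.55 (adjusted p = 0.0049) and 2.45 ± 0.55 (adjusted p = 0.0051). These rises ran from 1.75 (day 3, without its replicate 2) to 3.12 (without replicate 2 of day 0) when single libraries were left out, and at day 6 from 1.75 to 3.05 likewise. In siControl PMs the levels were 346 and 302 CPM at day 0, 642 and 615 at day 3, then 750.1 and 650.5 on day 6. The day 3 difference of 0.90 ± 0.19 (adjusted p = 0.002) missed the fold threshold, and the day 6 rise of 1.05 ± 0.19 (adjusted p = 0.00072) fell to 0.94 without replicate 2 of day 0 and to 0.94 without replicate 1 of day 6, below that threshold.

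Igfbp2, which binds IGF2 with preference, was the member that fell. In siControl C2C12 cells it declined from 867 and 672 CPM at day 0 to 221 and 202 at day 3, then 108 and 48.3 on day 6. The 3 days did not overlap, but only day 6 was called, at -3.34 ± 0.77 (adjusted p = 0.0062), against -1.90 ± 0.73 (adjusted p = 0.061) at day 3. The day 6 value was -2.85 (adjusted p = 0.05) without replicate 2 of day 6 and -4.03 (adjusted p = 0.02) without replicate 1. In siControl PMs it was at 64.9 and 68.7 CPM, then 6.96 and 16.1, then 8.02 and 13.4. It fell there at day 3 (-2.59 ± 0.61, adjusted p = 0.0041, and -3.31 without replicate 2 of day 3) and at day 6 (-2.70 ± 0.62, adjusted p = 0.0032).

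Igfbp5, the binding protein long linked to muscle differentiation, had 513 and 621 CPM in siControl C2C12 cells at day 0, 2426 and 2748 at day 3, then 2775 and 2119 on day 6. It rose by 2.15 ± 0.43 (adjusted p = 0.0032) and 2.07 ± 0.43 (adjusted p = 0.0035). PMs with siControl already had 1038 and 673 CPM of it at day 0, 1253 and 1570.2 at day 3, then 1656 and 1444 on day 6, differences of 0.67 ± 0.27 (adjusted p = 0.053) and 0.79 ± 0.27 (adjusted p = 0.025) that were not called. Igfbp4, a soluble inhibitor of IGF action, moved from 5.43 and 4.03 CPM at day 0 to 109.7 and 118 at day 3, then 105 and 115 on day 6 in siControl C2C12 cells. These rises of 4.55 ± 0.45 (adjusted p = 4.5e-05) and 4.50 ± 0.45 (adjusted p = 4.4e-05) had no counterpart in siControl PMs. There the levels were 40.1 and 29.2 CPM, 12.7 and 28.9, then 17.6 and 26.9, with -0.79 ± 0.32 (adjusted p = 0.056) and -0.71 ± 0.32 (adjusted p = 0.081), not called.

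Igfbp6, another IGF2-preferring binding protein, showed the opposite layout. It stood at 90.1 and 95.5 CPM, 94.0 and 79.0, then 119.9 and 75.1 at days 0, 3 and 6 in siControl C2C12 cells, where the days overlapped. In siControl PMs it climbed from 5.72 and 5.61 CPM to 25.3 and 20.1, then 38.3 and 45.5, with rises of 1.95 ± 0.26 (adjusted p = 9e-05) and 2.82 ± 0.26 (adjusted p = 6.6e-06). Of 6 tested fibroblast markers 2 rose by day 3 in these cells (median log2 fold change 0.08) and 4 by day 6. Their sum went from 552 and 565 CPM at day 0 to 1473 and 1595 at day 3, then 3872 and 2799 on day 6, of which Col1a1 alone made up 74.7 and 47.3 CPM at day 0 and 1124 and 1024 at day 3, and their part in the rise of Igfbp6 was not tested. Igfbp3, a main carrier of IGFs in serum, was at 15.1 and 4.89 CPM, 42.5 and 22.2, then 17.0 and 21.4 in siControl C2C12 cells and at 100.1 and 124, 68.5 and 123, then 98.6 and 142 in siControl PMs. Only its C2C12 rise at day 3 was called (1.66 ± 0.53, adjusted p = 0.031), and the day 6 difference was 0.90 ± 0.53 (adjusted p = 0.19). The day 3 rise in C2C12 cells was 1.12 (not called) without replicate 1 of day 3 and 1.06 (not called) without replicate 2 of day 0. It was 2.69 without replicate 1 of day 0.

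Whether the change during differentiation differed between the cell types was tested in 1 fit of all 24 libraries. Between day 0 and day 3, 4 of 10 members differed (11.2% of 16926 genes called) and by day 6 the same number (12.7% called). The change was lower in PMs than in C2C12 cells for Igf2, H19 and Igfbp4 and higher for Igfbp6. The PM minus C2C12 differences in log2 change at day 3 were -4.64 ± 0.61 (adjusted p = 6.1e-05) for Igf2, -3.73 ± 0.51 (adjusted p = 8.2e-05) for H19, -5.33 ± 0.58 (adjusted p = 8.2e-06) for Igfbp4 and 2.10 ± 0.56 (adjusted p = 0.017) for Igfbp6. The day 6 values were -5.12, -3.73, -5.18 and 2.81. Leaving out replicate 1 of C2C12 day 0 gave -5.27 and -5.76 for Igf2, replicate 2 of C2C12 day 6 gave -4.51 for Igf2 at day 6, and replicate 2 of PM day 3 gave -6.03 for Igfbp4 at day 3. The Igfbp6 difference at day 3 was not called without either replicate of PM day 0, replicate 1 of PM day 3 or replicate 2 of C2C12 day 3, at adjusted p-values of 0.059, 0.067, 0.071 and 0.073. Values that were not called at day 3 were -4.93 for Igf1, -1.60 for Igf2r (adjusted p = 0.099), -0.67 for Igfbp2 (adjusted p = 0.75), -1.93 for Igfbp3 (adjusted p = 0.061) and -1.47 for Igfbp5 (adjusted p = 0.078). At day 6 they were -5.13 for Igf1, -1.37 for Igf2r (adjusted p = 0.16), 0.66 for Igfbp2 (adjusted p = 0.76), -0.85 for Igfbp3 (adjusted p = 0.47) and -1.25 for Igfbp5 (adjusted p = 0.13). Igf1 had 7 and 8 counts in siControl C2C12 cells at day 0 and passed the filter through other groups. Its differences were therefore built in, and no test of them is given. The differentiated muscle markers, at 8335 and 7386 CPM in PMs at day 0 as given above, moved like Igf2, H19 and Igfbp4 but not like Igfbp6. The change of all 6 markers was called lower in PMs, and their part in these differences was not tested.

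Levels in PMs and C2C12 cells were then compared on the same day in siControl cells. Igf2, H19, Igf2r and Igfbp3 were higher in PMs on all 3 days and Igfbp2 and Igfbp6 lower, while Igfbp4 was higher in PMs at day 0 and lower afterwards. In counts, 7 of 10 members were called at day 0 (5 higher in PMs, 2 lower), when 26.8% of 16926 genes were called. At day 3 and day 6 the counts were 4 higher and 3 lower each, beside 29.8% and 24.9% of all genes called. Line, strain, culture conditions and differentiation state differ together here and cannot be told apart. In the same test all 6 differentiated muscle markers were higher in PMs at day 0 (median log2 fold change 6.84), as were 5 of 6 myogenic markers, and 4 and 3 of the 6 differentiated muscle markers at days 3 and 6.

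**Figure D3:**
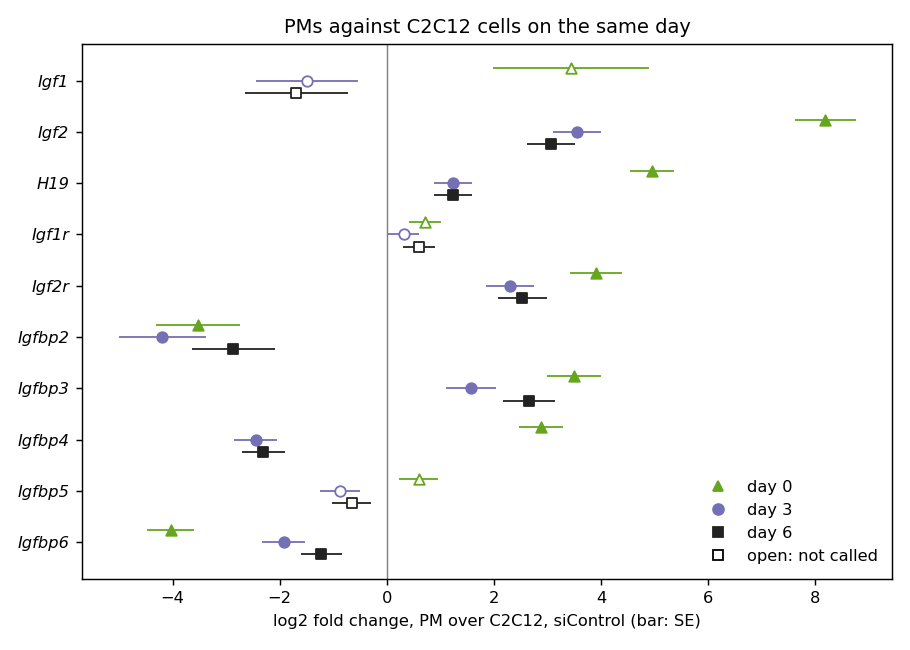
Log2 fold change of PMs over C2C12 cells on each day for the 10 members in siControl cells, with bars of 1 SE. Igf2 reaches 8.19 at day 0 and Igfbp6 -4.03, and Igfbp4 lies on opposite sides of 0 at day 0 and at the later days.

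The largest difference was that of Igf2 at day 0, 1827 and 1498 CPM in PMs against 7.80 and 3.66 in C2C12 cells, a log2 fold change of 8.19 ± 0.56 (adjusted p = 6.3e-09). Without replicate 1 of C2C12 day 0 it was 8.80. The difference was 3.55 ± 0.45 (adjusted p = 9.4e-06) at day 3 and 3.07 ± 0.44 (adjusted p = 4.4e-05) at day 6. H19 differed by 4.96 ± 0.41 (adjusted p = 5.6e-08) at day 0 and by 1.23 and 1.23 at days 3 and 6. The later H19 calls were lost without replicate 1 of PM day 3 (1.01, adjusted p = 0.082), replicate 1 of C2C12 day 3 (1.14, adjusted p = 0.075) or replicate 1 of C2C12 day 6 (1.03, adjusted p = 0.1). Igf2r was higher in PMs by 3.91 ± 0.48 (adjusted p = 6e-06), 2.31 ± 0.45 (adjusted p = 0.00053) and 2.53 ± 0.45 (adjusted p = 0.00034) at days 0, 3 and 6. Without replicate 2 of the C2C12 day concerned the later values were 3.07 and 3.24, and Igf2 at day 6 was 3.65. Per kilobase, the level of Igf2 was 9.38 and 8.83 times that of Igf2r in siControl PMs at day 0 and 0.972 and 0.226 times in siControl C2C12 cells.

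Among the binding proteins, Igfbp6 was 5.72 and 5.61 CPM in PMs and 90.1 and 95.5 in C2C12 cells at day 0, a difference of -4.03 ± 0.44 (adjusted p = 1.5e-06) that narrowed to -1.93 ± 0.40 (adjusted p = 0.00087) and -1.22 ± 0.39 (adjusted p = 0.021). The day 6 call was lost without replicate 1 (-1.12, adjusted p = 0.12) or 2 (-1.37, adjusted p = 0.063) of PMs or replicate 1 of C2C12 cells (-0.87, adjusted p = 0.17). Igfbp2 was lower in PMs, with log2 fold changes of -3.53 ± 0.78 (adjusted p = 0.0017), -4.19 ± 0.81 (adjusted p = 0.00051) and -2.87 ± 0.77 (adjusted p = 0.0077), and at day 6 not called without replicate 1 of either cell type (-2.56, adjusted p = 0.074 without that of PMs and -2.19, adjusted p = 0.066 without that of C2C12 cells). Igfbp3 was higher by 3.50 ± 0.50 (adjusted p = 3.1e-05), 1.57 ± 0.47 (adjusted p = 0.011) and 2.65 ± 0.48 (adjusted p = 0.00041). Its day 3 call was lost without replicate 2 of PMs (1.07, adjusted p = 0.12) or of C2C12 cells (1.17, adjusted p = 0.12), and its day 0 value ran from 2.86 to 4.49 without replicate 2 or replicate 1 of C2C12 cells. Igfbp4 changed side, from 2.88 ± 0.42 (adjusted p = 3.4e-05) at day 0 to -2.45 ± 0.40 (adjusted p = 0.00011) and -2.30 ± 0.40 (adjusted p = 0.00026). Without replicate 2 of PM day 3 the day 3 values were -3.17 for Igfbp4 and -4.94 for Igfbp2. Igfbp5, Igf1r and Igf1 were not called on any day. Igf1 was 3.44 at day 0, -1.49 ± 0.96 (adjusted p = 0.22) at day 3 and -1.69 ± 0.96 (adjusted p = 0.18) at day 6. At day 0 it had 7 and 8 counts in C2C12 cells and passed the filter through other groups. That difference was built in, so no test of it is given. Igfbp5 was 0.59, -0.87 and -0.66 on these days, and Igf1r 0.71 at day 0 and 0.60 at day 6.

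Tead1/4 silencing was then compared with siControl on the same day. Of the 10 members only Igfbp4 was called by edgeR, in PMs at day 3, where 3.3% of 16144 genes were called. No member was called by edgeR in PMs at day 0 (2.6% of all genes called) or day 6 (0.743%), with 2 and 0 members at an unadjusted p under 0.05 and 0 and 0 called by DESeq2. In C2C12 cells edgeR called none at day 0 (0.438%), day 3 (1.27%) or day 6 (0.0457%). There 1, 3 and 0 members had an unadjusted p under 0.05, and DESeq2 called Igfbp4 at day 0 (adjusted p = 0.042), Igfbp3 at day 3 (adjusted p = 0.029) and none at day 6. The members' median log2 fold change was -0.34 in C2C12 cells and 0.17 in PMs at day 3, and that of all genes 0.01 and 0.01. At days 0 and 6 the members' median was 0.003 and 0.12 in C2C12 cells and 0.015 and 0.25 in PMs. That of all genes was 0.017 and 0.013 in C2C12 cells and -0.0066 and 0.0007 in PMs. The lower median in C2C12 cells was thus seen at day 3 only.

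**Figure D4:**
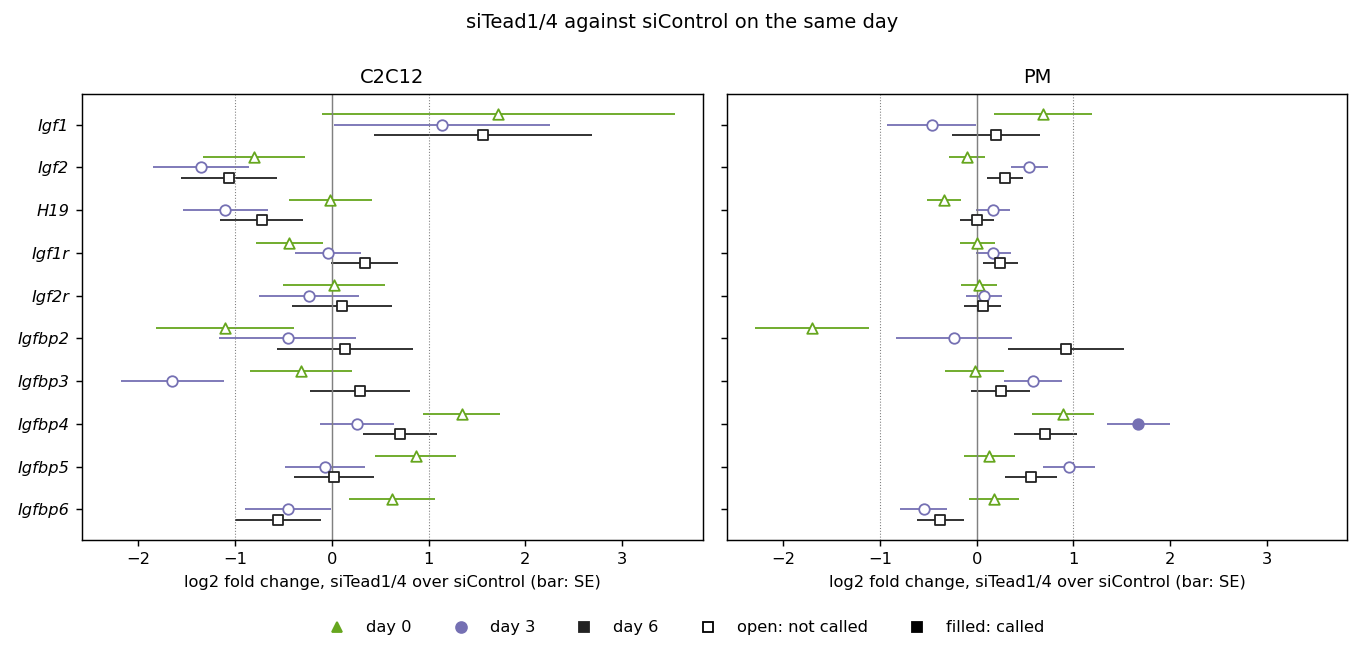
Log2 fold change of siTead1/4 over siControl for the 10 members at days 0, 3 and 6, with bars of 1 SE and filled points for called values. The single filled point is Igfbp4 in PMs at day 3 (1.67).

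Igfbp4 had 61.3 and 72.4 CPM in siTead1/4 PMs at day 3 against 12.7 and 28.9 in siControl PMs. The groups did not overlap, and it rose by 1.67 ± 0.33 (adjusted p = 0.013). Its call was lost without replicate 1 of siControl (1.20, adjusted p = 0.057) or replicate 2 of siTead1/4 (1.55, adjusted p = 0.072), and the value without replicate 2 of siControl was 2.39 (adjusted p = 0.0045). In siTead1/4 PMs Igfbp4 was also at 65.0 and 64.3 CPM at day 0 and 39.0 and 33.7 at day 6, above both siControl libraries on each day, with 0.89 ± 0.32 (adjusted p = 0.12) and 0.71 ± 0.32 (adjusted p = 0.44). In C2C12 cells it was at 8.32 and 15.7 CPM, 166 and 111, then 244 and 113 at days 0, 3 and 6 after silencing. Those differences were 1.34 ± 0.40 (adjusted p = 0.23) at day 0 and 0.70 ± 0.38 (adjusted p = 0.82) at day 6. The day 6 value rested on replicate 1 of siTead1/4, as replicate 2 (113 CPM) lay between the siControl libraries (105 and 115 CPM).

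Igfbp2 was the member most reduced at day 0 in both cell types, without being called. It had 16.7 and 24.5 CPM in siTead1/4 PMs against 64.9 and 68.7 in siControl PMs, which did not overlap (-1.71 ± 0.59, adjusted p = 0.11). A fit of those 4 libraries alone gave -1.68 (adjusted p = 0.0041). In C2C12 cells it had 89.5 and 620.2 CPM against 867 and 672, with replicate 1 of siTead1/4 far below the other 3 libraries (-1.11 ± 0.71, adjusted p = 0.67). Without replicate 2 of siTead1/4 the value was -3.13 (adjusted p = 0.078), and without replicate 1 it was -0.31. At day 3 siTead1/4 cells had 208 and 105 CPM (C2C12) and 4.57 and 15.3 CPM (PM), and at day 6 69.4 and 102 CPM (C2C12) and 10.7 and 29.9 CPM (PM), overlapping with siControl on both days in both cell types. The day 6 PM value of 0.92 ± 0.60 (adjusted p = 0.64) was -0.00357 without replicate 2 of siTead1/4.

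Igf2 lay lower in the siTead1/4 libraries of C2C12 cells on all 3 days and higher in those of PMs at days 3 and 6, without a call in either. In siTead1/4 C2C12 cells Igf2 was at 3.08 and 3.48 CPM at day 0, 82.7 and 214 at day 3, then 112 and 183 on day 6 in that order of days. The differences of -0.80 ± 0.53 (adjusted p = 0.68), -1.35 ± 0.50 (adjusted p = 0.24) and -1.06 ± 0.50 (adjusted p = 0.74) were not called. H19 was at 220.0 and 506 CPM, 4558 and 6936, then 4739 and 8442, with -1.10 ± 0.43 (adjusted p = 0.28) at day 3 and -0.73 ± 0.43 (adjusted p = 0.85) at day 6. The differentiated muscle markers summed to 5148 and 7064 CPM in the siTead1/4 and 14499.5 and 16916 CPM in the siControl C2C12 libraries at day 3, and their part was not tested. In siTead1/4 PMs Igf2 was at 1787 and 1338 CPM, 7134 and 5601, then 3376 and 2989. The day 3 difference was 0.55 ± 0.19 (adjusted p = 0.11), and H19 stayed within 0.5 on the log2 scale of its control in PMs on all 3 days, at 10140.2 and 8003 CPM, 33376 and 30950.5, then 27339.8 and 24099.7.

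Igf1 in siTead1/4 C2C12 cells rested on 1 replicate. It was at 0.728 and 0.329 CPM at day 0, 108 and 4.05 at day 3, then 196 and 26.4 on day 6, so that replicate 1 lay above and replicate 2 below the siControl libraries at days 3 and 6. The pooled values of 1.14 ± 1.12 (adjusted p = 0.74) at day 3 and 1.56 ± 1.12 (adjusted p = 0.89) at day 6 became -2.66 and -0.51 without replicate 1, and the day 0 value was 1.72 ± 1.82 (adjusted p = 0.84). In the same 2 day 3 libraries the 7 fibroblast markers summed to 3658 and 1470.3 CPM, whose part in the difference was not tested. In siTead1/4 PMs Igf1 was at 2.37 and 3.50 CPM, 3.75 and 9.44, then 11.0 and 15.7, overlapping with siControl on all 3 days, with 0.69 ± 0.50 (adjusted p = 0.46) at day 0.

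Igfbp5 was at 2952 and 2552 CPM in siTead1/4 PMs at day 3 and 2766 and 1801 at day 6, above the siControl libraries on both days. The differences were 0.96 ± 0.27 (adjusted p = 0.06) and 0.56 ± 0.27 (adjusted p = 0.46). In C2C12 cells it had 529 and 1534 CPM, 2373 and 2657, then 2834 and 2114, close to siControl at days 3 and 6, and its day 0 value of 0.87 ± 0.42 (adjusted p = 0.51) was -0.13 without replicate 2 of siTead1/4. Igfbp3 was at 14.0 and 6.88 CPM in siTead1/4 C2C12 cells at day 3, below both controls (-1.65 ± 0.53, adjusted p = 0.18), and at 125 and 164 CPM in siTead1/4 PMs, above both (0.58 ± 0.30, adjusted p = 0.29). Igfbp6 was lower in the siTead1/4 libraries of both cell types at days 3 and 6. Its levels were 71.8 and 56.8 and then 61.8 and 70.1 CPM in C2C12 cells and 11.3 and 20.0 and then 29.4 and 35.0 in PMs, none of them called. Those differences were -0.56 ± 0.45 (adjusted p = 0.91) in C2C12 cells at day 6 and -0.55 ± 0.24 (adjusted p = 0.21) in PMs at day 3. At day 0 Igfbp6 was at 65.6 and 219.6 CPM in C2C12 cells, where 0.62 ± 0.45 (adjusted p = 0.72) turned to -0.53 without replicate 2. Igf1r and Igf2r stayed within 0.5 of their controls on the log2 scale in all 6 comparisons. In siTead1/4 PMs Igf1r was at 50.3 and 46.6 CPM at day 0 and 55.3 and 51.9 at day 3, and Igf2r at 376 and 285, then 752 and 579.7.

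The difference of the silencing effect between PMs and C2C12 cells was not called for any member by edgeR at day 0 (0.00591% of 16926 genes called), day 3 (1.25%) or day 6 (0.0354%), with 0, 4 and 1 members at an unadjusted p under 0.05. At day 3 the PM minus C2C12 difference was 2.22 ± 0.65 (adjusted p = 0.11) for Igfbp3, 1.87 ± 0.58 (adjusted p = 0.14) for Igf2, 1.40 ± 0.54 (adjusted p = 0.26) for Igfbp4 and 1.25 ± 0.49 (adjusted p = 0.27) for H19. DESeq2 called the first 2 of these (adjusted p = 0.025 and 0.032) and none at days 0 and 6. The other day 3 values of at least 0.5 were -1.61 for Igf1 (adjusted p = 0.7) and 1.0 for Igfbp5 (adjusted p = 0.45). At day 0 they were -1.04 for Igf1 (adjusted p = 1), 0.71 for Igf2 (adjusted p = 1), -0.58 for Igfbp2 (adjusted p = 1) and -0.72 for Igfbp5 (adjusted p = 1), and at day 6 -1.36 for Igf1 (adjusted p = 1), 1.36 for Igf2 (adjusted p = 0.83), 0.73 for H19 (adjusted p = 1), 0.79 for Igfbp2 (adjusted p = 1) and 0.54 for Igfbp5 (adjusted p = 1).

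Within the 5 binding proteins, the make-up of the transcripts shifted from Igfbp2 to Igfbp5. Per kilobase of gene length, Igfbp2 made up 70.6% to 77.5% of their summed level in siControl C2C12 cells at day 0 and Igfbp5 11.2% to 15.9%. By day 6 the shares were 6.81% to 11.0% and 68.7% to 72.5%, with the sum at 652 to 766 CPM per kb at day 0 and 486 to 673 at day 6. In siControl PMs Igfbp5 led on every day, with 53.3% to 65.6% at day 0, 77.7% to 80.0% at day 3 and 70.3% to 78.5% at day 6, and Igfbp3 held 12.1% to 18.8% at day 0, against at most 2.00% in any C2C12 library. After Tead1/4 silencing Igfbp2 was at 28.7% to 48.1% in C2C12 cells and 4.55% to 8.28% in PMs at day 0, below the siControl shares of 70.6% to 77.5% and 16.9% to 22.4%. The 2 siTead1/4 C2C12 libraries differed in their sum, 213 CPM per kb in replicate 1 and 883 in replicate 2, where Igfbp2 was at 620.2 CPM, near siControl, and Igfbp5 at 1534 and Igfbp6 at 219.6 CPM lay above it. The sum in PMs at day 3 was 522 to 558 CPM per kb with siTead1/4 and 261 to 336 with siControl.

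**Figure D5:**
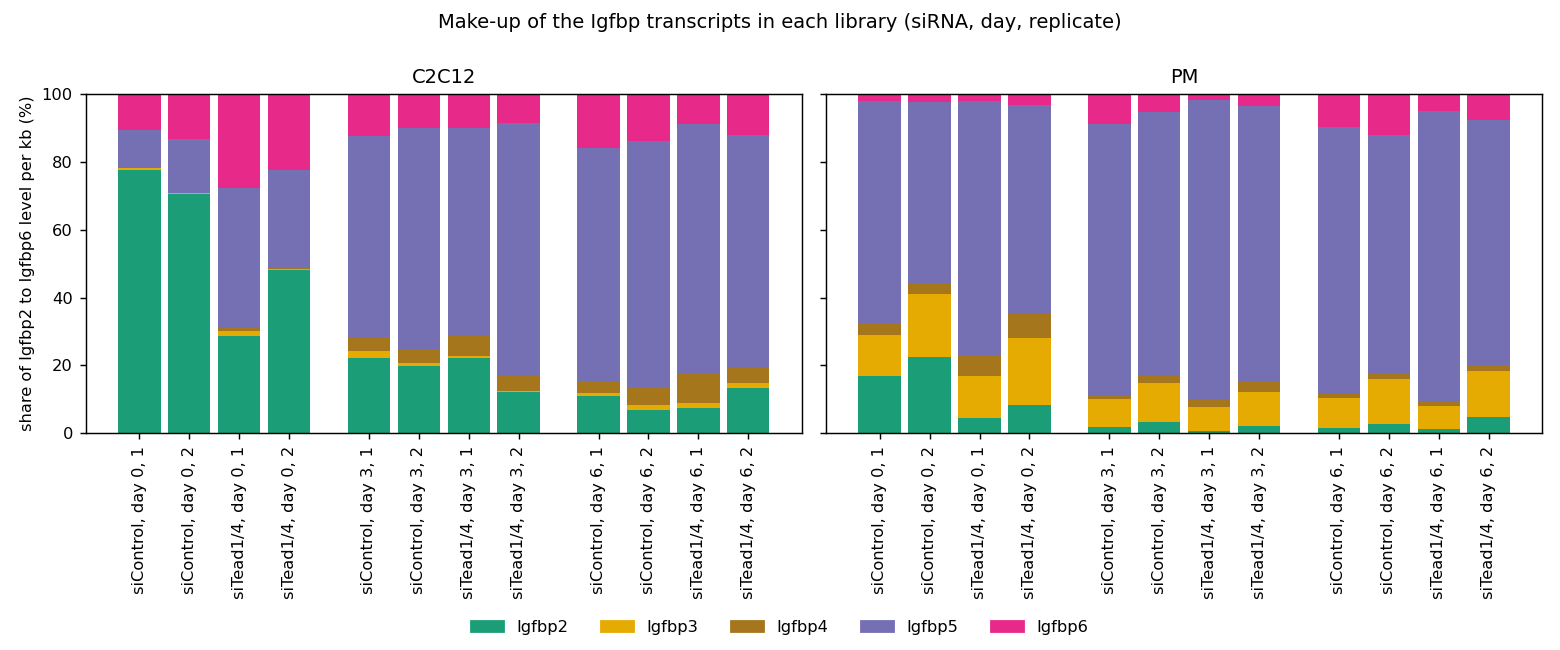
Share of Igfbp2 to Igfbp6 in their summed level per kb in each library, stacked to 100%, by siRNA, day and replicate. Igfbp2 fills most of the siControl C2C12 bars at day 0 (70.6% to 77.5%), and Igfbp5 most of every PM bar.

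Genes that act around the axis were read from lists by function, given in counts of called genes. Of the 7 tested partners and proteases of the binding proteins, 6 rose and 1 fell in siControl PMs at day 3 and likewise at day 6, whereas 2 rose at each of these days in C2C12 cells. Of all genes, 32.3% and 35.5% were called in PMs at these days and 28.7% and 31.1% in C2C12 cells. These counts include Pappa in PMs and Pappa2 in C2C12 cells, both of them near 0 at day 0. Pappa, the protease that cleaves IGFBP4, went from 0.212 and 0.113 CPM at day 0 to 2.33 and 3.56 at day 3, then 12.9 and 12.1 on day 6 in siControl PMs. It had 10 and 4 counts at day 0 and passed the filter through the later days, so a difference from day 0 was built in and no test is given. In siControl C2C12 cells it was at 1.55 and 2.22 CPM at day 0 and at 0.829 and 1.70 on day 6. Pappa2, a related protease, rose by 3.36 ± 0.71 (adjusted p = 0.002) in PMs at day 3. In C2C12 cells, where it had 2 and 6 counts at day 0, it was at 3.61 and 3.34 CPM at day 3. Stc1, which encodes a stanniocalcin (a family that inhibits these proteases), fell in PMs (-2.39 ± 0.39, adjusted p = 0.00036). Htra3 rose in C2C12 cells (3.72 ± 0.57, adjusted p = 0.00071) and Htra1 in PMs by day 6 (3.33 ± 0.40, adjusted p = 3.7e-05). No gene of this list was called after Tead1/4 silencing in either cell type. At days 0, 3 and 6 the shares of all genes called then were 0.438%, 1.27% and 0.0457% in C2C12 cells and 2.6%, 3.3% and 0.743% in PMs. The lack of calls among 7 genes therefore says little about the list.

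Of the 9 insulin receptor and adaptor genes tested, 2 rose in C2C12 cells and 1 in PMs at day 3, and none fell, shares not above the 28.7% and 32.3% of all genes called. Insr, the insulin receptor, rose in siControl PMs from 39.6 and 37.1 to 122 and 135 CPM (1.69 ± 0.14, adjusted p = 3.9e-06). Grb10, an imprinted adaptor that dampens insulin and IGF receptor signalling, was far lower in C2C12 cells. It was at 749.8 and 579 CPM in siControl PMs at day 0 and at 0.310 and 0.107 in C2C12 cells (11 and 6 counts). It passed the filter of the joint fit through PMs, so this difference was built in and no test is given. At day 3 it was at 884 and 857 CPM in PMs and at 1.98 and 2.89 in C2C12 cells. Grb10 fell after silencing in C2C12 cells at day 3, to 0.556 and 0.394 CPM (-2.39 ± 0.47, adjusted p = 0.041), and was not called in PMs, at 1017 and 714 CPM, and the difference between the cell types was 2.36 ± 0.46 (adjusted p = 0.016).

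Of 13 PI3K and Akt genes, 2 rose and 0 fell in C2C12 cells and 1 rose and 1 fell in PMs at day 3. Akt2, the kinase isoform tied to insulin action in muscle, rose in C2C12 cells (1.57 ± 0.22, adjusted p = 0.00046), Inpp5k, a phosphatase of phosphoinositides, rose in both (1.24 ± 0.24, adjusted p = 0.0027 and, in PMs, 2.18 ± 0.12, adjusted p = 3.5e-07), and Phlpp1, an Akt phosphatase, fell in PMs (-1.11 ± 0.13, adjusted p = 3.5e-05). Of 16 mTOR and Foxo genes, 4 rose and 1 fell in C2C12 cells and 2 rose in PMs at day 3. Sesn1, a stress-induced inhibitor of mTORC1, rose in both (1.53 ± 0.28, adjusted p = 0.0019 and 1.82 ± 0.11, adjusted p = 6e-07), Foxo4 rose (1.66 ± 0.17, adjusted p = 5.8e-05) and Ddit4, an mTORC1 inhibitor, fell (-1.64 ± 0.46, adjusted p = 0.017) in C2C12 cells, and Foxo3 rose in PMs (1.15 ± 0.18, adjusted p = 0.00029). After silencing, 1 PI3K gene and 1 Foxo gene were called in PMs at day 3. Pik3r1, a regulatory subunit of PI3K, was at 69.0 and 91.3 CPM against 32.2 and 46.8 (1.01 ± 0.18, adjusted p = 0.0087). Foxo1, the transcription factor held back by Akt, was at 82.8 and 103 against 30.2 and 51.5 CPM (1.17 ± 0.24, adjusted p = 0.015), and it was called at day 0 too (1.11 ± 0.24, adjusted p = 0.02). None of either list was called in C2C12 cells after silencing, when 0.438%, 1.27% and 0.0457% of all genes were called at days 0, 3 and 6. With shares this low, the lack of calls says little about lists of this size. The shares of all genes called were 28.7% (C2C12) and 32.3% (PM) at day 3 against day 0, and 3.3% and 2.6% after silencing in PMs at days 3 and 0.

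Of 7 tested regulators of Igf2 transcripts, Hmga2, a chromatin protein of proliferating myoblasts, fell in siControl cells of both kinds at day 3, from 399 and 454 to 38.3 and 30.8 CPM in C2C12 cells (-3.67 ± 0.34, adjusted p = 3.3e-05) and from 286 and 356 to 61.5 and 31.7 in PMs (-2.84 ± 0.36, adjusted p = 6.8e-05). It was also lower after silencing in C2C12 cells at day 0, at 126 and 104 CPM (-1.89 ± 0.32, adjusted p = 0.037). Ctcf, the insulator protein of the Igf2 and H19 locus, fell in PMs (-1.01 ± 0.09, adjusted p = 6.2e-06). Igf2bp3, which binds Igf2 transcripts, was at 11.1 and 3.38 CPM in PMs and 0.310 and 0.515 in C2C12 cells at day 0. Around the locus, Nctc1, a noncoding RNA near H19, had 0 counts in siControl C2C12 cells at day 0, then 2.93 and 2.25 CPM at day 3, and in siControl PMs went from 3.01 and 3.69 to 23.0 and 16.4 CPM (2.50 ± 0.19, adjusted p = 1.9e-06). After silencing it was lower in PMs at day 0, at 1.01 and 1.22 CPM (-1.58 ± 0.21, adjusted p = 0.0025). Tnnt3, the fast troponin gene of the same region, rose from 7.60 and 1.87 to 1499 and 1496 CPM in siControl C2C12 cells, while Mrpl23 was at 11.6 and 9.54 CPM at day 0 and 14.7 and 12.2 at day 3, and was not called. Igf2as, whose reads cannot be told apart from those of Igf2 where they overlap, was at 4.03 and 4.23 CPM in C2C12 cells and 5.50 and 6.52 in PMs at day 3. The cell types were not alike at day 0, where Igf2as was higher in siControl PMs by 8.51 on the log2 scale. In siControl C2C12 cells its log2 change from day 0 to day 3 was 8.16, and the PM minus C2C12 difference in change was -7.97. These values rest on a C2C12 day 0 level near the floor, so no test is given. Airn, which overlaps Igf2r, was higher in siControl PMs than in siControl C2C12 cells, by 1.84 ± 0.45 at day 3 and 1.86 ± 0.45 at day 6 (log2 fold change ± SE).

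As a description over the 12 group means, which share the cell types and days, the genes closest to a member in log2 CPM were Pik3c2b, Gm16574 and Zfp568 for Igf2 (r from 0.994 to 0.994), Arhgef37, Grip2 and Alpk3 for H19 (r from 0.994 to 0.995) and Mamdc2, Ctrb1 and Pcdhb7 for Igf1 (r from 0.968 to 0.981). For the others they were 1810041L15Rik, Dact3 and Gm16574 for Igf2r (r from 0.990 to 0.990), Npas3, Gm16364 and Nbea for Igf1r (r from 0.956 to 0.962), Inpp1, Mmd and Ptk2 for Igfbp2 (r from 0.970 to 0.971), Jam3, Rxrg and Atp6v1e2 for Igfbp3 (r from 0.987 to 0.990), Htr2b, Dtx4 and Chst15 for Igfbp4 (r from 0.960 to 0.968), Pou2af1, Zfp36l1 and Appl2 for Igfbp5 (r from 0.971 to 0.977) and Tspo, Avpi1 and Sqrdl for Igfbp6 (r from 0.976 to 0.982). Among the members, Igf2 and H19 ran together over the 6 C2C12 means (r = 0.998) and the 6 PM means (r = 0.904). This was not particular to that pair. In C2C12 cells Igfbp4 and Igfbp5 ran nearly as close (r = 0.993), and in PMs H19 ran closer to Igf2r (r = 0.958). Igfbp2 ran against Igf1 (r = -0.872 and -0.742), and likewise against Igf2r (-0.793 and -0.774), Igfbp5 (-0.84 and -0.717), H19 (-0.745 and -0.753) and Igf2 (-0.707 and -0.752). With Igfbp4 its r was -0.852 in C2C12 cells and 0.0717 in PMs, and with Igfbp6 0.365 and -0.678. Over all 12 means r was -0.357 with Igf1 and -0.932 with Igf2r.

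Ordered by level over the 12 groups, Igf2 and H19 were both highest in siTead1/4 PMs at day 3 and lowest in siTead1/4 C2C12 cells at day 0, a 2318-fold and a 152-fold span between single libraries. For Igf2 the libraries of 4 of the 11 neighbouring pairs in that order overlapped, and for H19 9. For Igf1r all 11 pairs overlapped within a 4.52-fold span. Igfbp5 spanned 5.75-fold with 9 overlapping pairs, Igfbp2 189.6-fold with 8, Igfbp4 60.4-fold with 7 and Igfbp6 39.9-fold with 5. Igfbp2 was highest in siControl C2C12 cells at day 0 and lowest in siTead1/4 PMs at day 3, and Igfbp4 was highest in siTead1/4 C2C12 cells at day 6 and lowest in siControl C2C12 cells at day 0. Igf1 spanned 1376-fold (6 overlapping pairs), Igf2r 59.1-fold (8) and Igfbp3 35.6-fold (9).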

How the data were processed

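Poly(A) RNA of 24 libraries (unstranded TruSeq) was sequenced, and per the submitters' processing notes handled with CASAVA 1.8.2, TopHat2 2.0.10, Bowtie2 2.1.0, HTSeq 0.6.1 and DESeq2 1.8.1 on mm9. The authors deposited raw counts per gene, with gene lengths and normalised columns that were not used for tests. The deposited table also held 36 columns of 12 libraries with no sample description, and these were not used. Counts were tested with edgeR 4.0.16 (R 4.3.3, filterByExpr, TMM, quasi-likelihood F-test), in 1 fit of 12 libraries per cell type and, between cell types, in 1 fit of all 24 libraries. The filter left 15303, 16144 and 16926 genes, all 10 members included. Reads from exons of near-identical or overlapping genes cannot be told apart. Alternatives were DESeq2 1.42.0, its size factors, no filter, the replicate number as a block, other sets of libraries, and leaving out each library. The scripts were tested on simulated data. Every member was named, with fold changes where called or at least 0.5 on the log2 scale. List genes were named from the 3 with the largest change among those called in a comparison, and Mrpl23, Igf2as and Airn were chosen after their values were seen. Closest genes were ranked by Pearson's r. The members and lists were chosen with earlier results of these data known. Igf2os, listed as a neighbour, had no row in the table used here.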

Additional observations from a re-analysis of the deposited data

Results flagged for a closer look

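The change during differentiation differed between the cell types in edgeR's interaction test for 4 members. The PM minus C2C12 differences in log2 change from day 0 to day 3 were -4.64 for Igf2, -3.73 for H19, -5.33 for Igfbp4 and 2.10 for Igfbp6 (adjusted p = 6.1e-05, 8.2e-05, 8.2e-06 and 0.017). From day 0 to day 6 they were -5.12, -3.73, -5.18 and 2.81 (adjusted p = 2e-05, 6.5e-05, 8.5e-06 and 0.0022). Without replicate 1 of siControl C2C12 day 0 the Igf2 differences were -5.27 and -5.76, and without replicate 2 of siControl C2C12 day 6 the day 6 one was -4.51. The Igfbp4 difference at day 3 was -6.03 without replicate 2 of siControl PM day 3. The Igfbp6 call at day 3 was lost without either replicate of PM day 0, replicate 1 of PM day 3 or replicate 2 of C2C12 day 3. The change of all 6 differentiated muscle markers was called lower in PMs, as for Igf2, H19 and Igfbp4 but not Igfbp6. The part of the markers in these differences was not tested.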

How the results depend on the processing

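Of 125 fold changes of members, 54 were called, and 41 of these calls held in every alternative run. Over 1258 alternatives, 1162 gave the same direction and call, 24 lost a call, 62 gained one and 10 reversed. All reversals came from leaving out 1 library. Over the libraries left out in turn, the silencing fold changes at day 0 in C2C12 cells ran from -0.13 to 1.44 for Igfbp5 and from -0.53 to 1.25 for Igfbp6, lowest without replicate 2 of siTead1/4. The PM minus C2C12 differences at day 0 ran from -1.38 to 1.44 for Igfbp2 and from -1.29 to 0.27 for Igfbp5, highest without the same library. Igf1 in C2C12 cells ran from -2.66 to 2.09 at day 3 and from -0.51 to 2.37 at day 6, lowest without replicate 1 of siTead1/4, and its differences ran from -2.54 to 2.18 and from -2.19 to 0.69. Igfbp2 in PMs at day 6 ran from -0.00357 to 1.48 and its difference from -0.15 to 1.33, lowest without replicate 2 of siTead1/4. The counts of members called after silencing in C2C12 cells (0 on each day) became 1, 1 and 0 with DESeq2 and 3, 4 and 2 with no filter, and day 6 against day 3 in C2C12 cells went from 0 to 1 with no filter. For PM silencing at day 0 the count went from 0 to 1 with no filter or with the 4 libraries alone. The silencing difference at day 3 went from 0 to 2 with DESeq2 and 4 with no filter, and at day 6 from 0 to 1 with no filter. The differentiation difference went from 4 to 8 at day 3 with DESeq2 or no filter, and from 4 to 7 at day 6 with no filter. Leaving out single libraries gave 0 to 1 members for PM silencing at day 3, 3 to 6 for PM day 6 against day 0, 4 to 7 for PMs against C2C12 cells at day 6 and 0 to 1 for the silencing difference at day 3. The cause was not tested for any of these.

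The replicate numbers are not stated to pair the samples. Deviations of same-numbered samples correlated at -0.104 to 0.347 over 15 pairs of groups in C2C12 cells, 5 of them over 0.1, and at 0.0444 to 0.425 in PMs, 14 of 15 over 0.1, with only 2 replicate numbers. The Schwann cell and endothelial marker sums were higher in replicate 1 than in replicate 2 in all 6 PM groups. With the replicate block the count of members called went from 0 to 1 for PM silencing at day 0, from 0 to 1 for the silencing difference at day 3 and from 4 to 7 for the differentiation difference at day 3, and no other count of members moved by over 1.5 times.

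Over all genes, silencing calls in C2C12 cells at days 0, 3 and 6 numbered 67, 195 and 7. They were 256, 603 and 143 with DESeq2, 480, 1055 and 387 with no filter, 245, 690 and 88 with all 24 libraries in 1 fit and 0, 7 and 0 with the 4 libraries alone. In PMs the 420, 532 and 120 calls became 204, 312 and 60 with all 24 libraries, 804 (day 3) and 335 (day 6) with no filter, and at day 6 224 with DESeq2, 290 with the replicate block and 0 with the 4 libraries alone. Day 6 against day 3 went from 452 in PMs to 164 with all 24 libraries, 148 with the 4 libraries alone, 709 with no filter and 732 with the block, and from 0 in C2C12 cells to 19 with DESeq2 and 102 with no filter. The silencing differences (1, 212 and 6) were 32, 494 and 60 with DESeq2, 88, 853 and 146 with no filter and 5, 327 and 34 with the block. With 2 replicates a group, a member missing the threshold is not shown to be unchanged. Igf1 at day 0 in C2C12 cells rested on 7 and 8 counts.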
